A study of Mus musculus with 12 samples.

Results

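The liver makes fatty acids from acetyl-CoA and esterifies them to triglyceride, and 10 genes of these steps are described here: Acly, Acss2, Acaca, Acacb, Fasn, Me1, Gpam, Dgat2, Pnpla3 and Mlxipl. They were taken as a named list, and every probe set annotated to one of these symbols alone was used, which gave 12 of 35557 probe sets and 10 of the 19938 genes measured. Acaca and Me1 have a second probe set each, and the brighter set stands for the gene. The arrays hold liver RNA of 129Sv mice killed at 12 weeks of age after a 24 h fast. Wild-type mice (SIRT3WT) and mice lacking SIRT3 (SIRT3KO), a deacetylase of the mitochondrion, were kept on a standard diet or, from weaning, on a Western diet with 42% fat. Each of the 4 groups of genotype and diet has 3 arrays, 12 in all. The labels give neither sex nor the construct of the knockout, nor whether it spans the whole body. They do not say whether mice of a group shared a litter or a cage, so p-values measure the spread between these samples. The series addresses how diet changes liver expression in the presence and absence of SIRT3.

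In lipogenesis, citrate leaves the mitochondrion and is cleaved by ATP citrate lyase (Acly) to acetyl-CoA, which acetyl-CoA synthetase (Acss2) also makes from acetate. Acetyl-CoA carboxylases (Acaca, Acacb) turn it into malonyl-CoA, and fatty acid synthase (Fasn) builds palmitate from that with NADPH, part of which malic enzyme (Me1) supplies. Glycerol-3-phosphate acyltransferase (Gpam) starts and diacylglycerol acyltransferase (Dgat2) ends the esterification to triglyceride. In liver the programme is known to be high in the fed state and low in fasting, under the transcription factors SREBP-1c (Srebf1) and ChREBP (Mlxipl).

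The sequence just upstream of listed transcription starts is shown for the 4 members called in a comparison of diets (Acacb, Acaca, Acly and Mlxipl). These carry the differences described next. Sequences are the 250 bases before each start listed in RefSeq for GRCm38.p6, given 5′ to 3′ on the gene's strand. Windows were found for 9 of the 10 members, 12 windows in all, and none for Dgat2. Capitals mark any match, on either strand, to TCACNCCAC (a sterol regulatory element), CACGTG (the E-box core of carbohydrate response elements), CCAAT (the NF-Y box) or GGGCGG (the Sp1 box).
Acacb, chr5:114165268-114165517, plus strand: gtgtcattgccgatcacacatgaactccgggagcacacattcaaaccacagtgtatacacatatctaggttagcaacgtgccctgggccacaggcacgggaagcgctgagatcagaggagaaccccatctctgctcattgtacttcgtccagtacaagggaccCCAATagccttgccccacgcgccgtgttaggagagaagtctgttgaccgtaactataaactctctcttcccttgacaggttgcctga
Acaca, chr11:84195188-84195437, plus strand: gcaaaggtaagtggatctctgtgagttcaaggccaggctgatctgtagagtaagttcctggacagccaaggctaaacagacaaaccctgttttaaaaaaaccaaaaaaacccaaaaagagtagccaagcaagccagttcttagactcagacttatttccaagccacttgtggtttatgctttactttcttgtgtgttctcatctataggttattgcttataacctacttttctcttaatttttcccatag
Acly, chr11:100528001-100528250, minus strand: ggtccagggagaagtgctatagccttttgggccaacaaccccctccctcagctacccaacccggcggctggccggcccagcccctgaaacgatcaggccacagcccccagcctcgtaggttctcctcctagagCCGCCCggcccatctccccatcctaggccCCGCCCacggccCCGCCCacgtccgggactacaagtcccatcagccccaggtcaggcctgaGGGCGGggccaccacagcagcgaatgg
Mlxipl, chr5:135089640-135089889, plus strand: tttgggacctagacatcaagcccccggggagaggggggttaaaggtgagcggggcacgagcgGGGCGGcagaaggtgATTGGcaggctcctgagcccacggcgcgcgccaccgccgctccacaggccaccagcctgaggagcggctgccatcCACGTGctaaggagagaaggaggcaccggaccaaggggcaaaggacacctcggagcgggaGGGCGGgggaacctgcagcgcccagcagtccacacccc
Mlxipl, chr5:135106641-135106890, plus strand: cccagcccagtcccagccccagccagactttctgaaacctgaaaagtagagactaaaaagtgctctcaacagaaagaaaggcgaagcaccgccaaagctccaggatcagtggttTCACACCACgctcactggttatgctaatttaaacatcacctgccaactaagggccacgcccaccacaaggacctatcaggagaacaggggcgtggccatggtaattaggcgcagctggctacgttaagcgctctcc
The Mlxipl windows hold the only CACGTG and the only TCACNCCAC match among the 12 member windows. CACGTG lies 98 to 93 bases before the upstream start, and TCACNCCAC lies 136 to 128 bases before the downstream start. Of 32851 RefSeq windows of the same length, 6.02% hold CACGTG and 1.05% hold TCACNCCAC. CCAAT occurs in 7 of the 12 member windows (33.8% of all windows) and GGGCGG in 6 (32.7% of all windows). The Acacb window has 1 CCAAT match, 87 to 83 bases before the start, the Acly window has 4 GGGCGG matches, and the Acaca window has none of these motifs. Starts that are not listed were not searched, so the windows may miss the main promoter of a gene. Whether a listed start is the one used in liver was not tested. A match is a match of letters and does not show a bound site.

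The levels are log2 values normalized by the authors with RMA, and a difference of 1 is 2-fold. A gene was called when its limma p-value, adjusted by Benjamini-Hochberg over all 19938 genes, was under 0.05. Array medians lay between 6.34 and 6.47. The diets appear to have been normalized in separate runs. On every standard-diet array 335 probe sets have no value, and arrays of the same diet share 2 to 31 identical values a pair where arrays of different diets share at most 1. Comparisons of diet therefore lie across runs, while comparisons of genotype lie within them. Olfactory, vomeronasal and taste receptor genes, 1231 in number and here called chemosensory genes, give a scale for differences between runs. Of them 11.3% were called between the diets in the wild type and 7.64% in the knockout, and the central 95% of their diet differences ran from -0.46 to 0.59 and from -0.56 to 0.47. Between the genotypes, and so within runs, 0 of them were called on either diet. The central 95% there ran from -0.19 to 0.41 on the standard and from -0.29 to 0.23 on the high-fat diet. The ranges between the diets therefore also hold spread between arrays of a run. These genes are dim, with a median level of 4.23 against 6.7 for all genes. The level of hepatocyte markers was between 13.45 and 13.61 on every array. Sirt3 differed by -0.14 (adjusted p = 0.66) and -0.42 (adjusted p = 1) between knockout and wild type, and as the position of its probes relative to the deletion is not given, its signal does not check the labels. Some arrays stood apart. Knockout standard-diet replicate 1 had an acute-phase list mean of 11.71 against 9.72 and 9.67 on the rest of its group, and a mean of male-biased genes of 9.21 against 10.53 and 10.52. Its mean of female-biased genes was 7.41 against 5.90 and 6.08. Acute-phase means were also high on replicate 3 of both high-fat groups, 10.27 in the wild type and 10.39 in the knockout, against 9.64 to 10.02 on the other high-fat arrays. Knockout standard-diet replicate 2 had a skeletal muscle marker mean of 8.75 against 6.74 to 6.97 on all other arrays. In whole liver RNA, fewer cells of a type and less RNA per cell cannot be told apart.

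Between the diets, and so across runs, Acacb was called lower and the ChREBP gene Mlxipl higher with high fat in both genotypes. The other carboxylase gene, Acaca, was called higher in the knockout alone. The wild-type Mlxipl call was lost in 8 of 12 fits that left out 1 array, and the knockout Acaca call in 9. No member was called with a variance for the offset between runs, given below. Acacb fell 1.84-fold in the wild type and 1.66-fold in the knockout, and Mlxipl rose 1.39-fold and 1.83-fold. Acaca rose and Acly fell in the knockout, where each passed the test, and lay on the same side in the wild type, where neither did. In the wild type 2 of 10 members were called, 1 up and 1 down, where 5.99% of all genes were called, 4.3% up and 1.69% down. In the knockout 4 of 10 were called, 2 up and 2 down, against 5.11% of all genes, 2.45% up and 2.66% down. The arrays of the diets did not overlap for 6 of 10 members in the wild type (30.3% of all genes) and for 5 of 10 in the knockout (23.8%). The median difference of the members was -0.14 in the wild type and -0.13 in the knockout, against 0.04 and -0.01 for all genes.

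**Figure D1:**
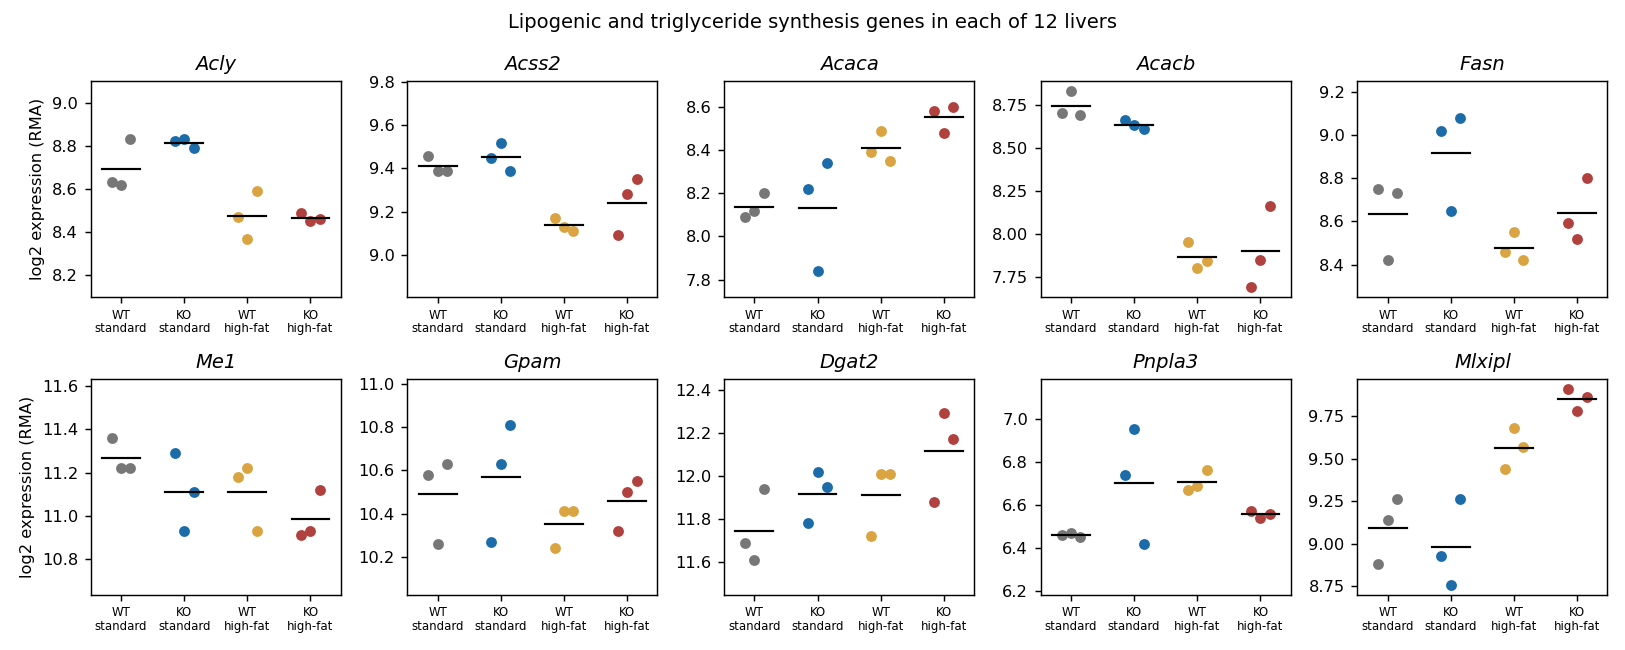
Log2 expression (vertical axis, RMA values, a separate scale for each gene) of the 10 genes in each of 12 livers, by genotype and diet. Points are arrays in replicate order and lines are group means of 3; Acacb lies lower, and Mlxipl and Acaca lie higher, on every high-fat array than on every standard-diet array of the same genotype.

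Acly, which supplies acetyl-CoA from citrate, measured 8.63, 8.62 and 8.83 in the wild type and 8.82, 8.83 and 8.79 in the knockout on the standard diet. High-fat livers measured 8.47, 8.37 and 8.59 in the wild type and 8.49, 8.45 and 8.46 in the knockout. All 6 high-fat arrays lay below all 6 standard-diet arrays. The difference between diets was -0.35 in the knockout (SE 0.0859, limma adjusted p = 0.0315, 1.27-fold lower), which was called. In the wild type it was -0.22 (95% interval -0.40 to -0.032, adjusted p = 0.152), which was not. The call in the knockout was lost, with adjusted p up to 0.104, without knockout replicates 1 or 2 of the standard diet or 2 or 3 of the high-fat diet.

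Acss2, which activates acetate, was low on the high-fat diet in both genotypes without passing the test. The standard-diet arrays measured 9.46, 9.39 and 9.39 in the wild type and 9.45, 9.52 and 9.39 in the knockout. The high-fat arrays measured 9.17, 9.13 and 9.11 in the wild type and 9.09, 9.28 and 9.35 in the knockout. Again the diets did not overlap in either genotype. The differences were -0.27 (95% interval -0.45 to -0.097, adjusted p = 0.0658) in the wild type and -0.21 (95% interval -0.39 to -0.037, adjusted p = 0.15) in the knockout. The wild-type difference was called with array weights (adjusted p = 0.0152), with median centring (-0.35, adjusted p = 0.0394) and without knockout high-fat replicate 1 (adjusted p = 0.0398).

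Acacb encodes the carboxylase at the mitochondrial outer membrane, whose malonyl-CoA is known to inhibit the entry of fatty acids for oxidation. Its levels on the standard diet were 8.70, 8.83 and 8.69 in the wild type and 8.66, 8.63 and 8.61 in the knockout. The high-fat arrays gave 7.95, 7.80 and 7.84 in the wild type and 7.69, 7.85 and 8.16 in the knockout. No high-fat array reached the lowest standard-diet array. The highest of them was knockout replicate 3 at 8.16, and the lowest standard-diet array was knockout replicate 3 at 8.61. The difference was -0.88 in the wild type (SE 0.107, 95% interval -1.11 to -0.65, limma adjusted p = 0.000677) and -0.73 in the knockout (SE 0.107, 95% interval -0.96 to -0.50, adjusted p = 0.00242). Both values lie beyond the central 95% of chemosensory genes. Acacb is also expressed in muscle, and on the array with high muscle markers it measured 8.63, between the 8.66 and 8.61 of the rest of that group. Without that array the knockout difference was -0.73. The part of muscle RNA in the Acacb values was not tested.

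Acaca encodes the cytosolic carboxylase, whose malonyl-CoA goes into fatty acid synthesis. It measured 8.09, 8.12 and 8.20 in the wild type and 8.22, 7.84 and 8.34 in the knockout on the standard diet. Under high fat the levels were 8.39, 8.49 and 8.35 in the wild type and 8.58, 8.48 and 8.60 in the knockout. On this brighter probe set every high-fat array lay above all 6 standard-diet arrays. The margin was small in places, since knockout replicate 3 at 8.34 was close to wild-type replicate 3 at 8.35. The difference was 0.42 in the knockout (SE 0.111, 95% interval 0.18 to 0.66, limma adjusted p = 0.0426) and 0.27 in the wild type (95% interval 0.034 to 0.51, adjusted p = 0.161). Without knockout standard-diet replicate 2, which held the lowest value of 7.84 and the high muscle markers, the knockout difference was 0.27 and its adjusted p was 0.138. The call was lost in 9 of 12 fits that left out 1 array and kept only without knockout replicate 3 of the standard diet or wild-type replicates 2 or 3 of the high-fat diet. The second probe set of Acaca gave 0.44 in the knockout and 0.38 in the wild type. On that set knockout standard-diet replicate 3, at 7.37, lay above every high-fat array but knockout replicate 3, at 7.62. The knockout call was lost with the mean of both probe sets (0.43, limma adjusted p = 0.0843). It was also lost with all probe sets tested (0.0791), median centring (0.0701) and the dimmest genes left out (0.0533). The values of Acaca and Acly lie within the central 95% of chemosensory genes in both genotypes.

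Set against each other in the same liver, the Acaca value minus the Acacb value was -0.60, -0.70 and -0.49 in wild-type and -0.44, -0.78 and -0.27 in knockout livers on the standard diet. With high fat it was 0.44, 0.69 and 0.51 in the wild type and 0.89, 0.63 and 0.44 in the knockout. The offset between the probe sets has no meaning of its own, and its change between the diets was 1.15 in each genotype. That change only combines the diet differences of Acaca and Acacb given above, and like them lies across runs. This quantity was chosen after the values were seen and was not tested.

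**Figure D2:**
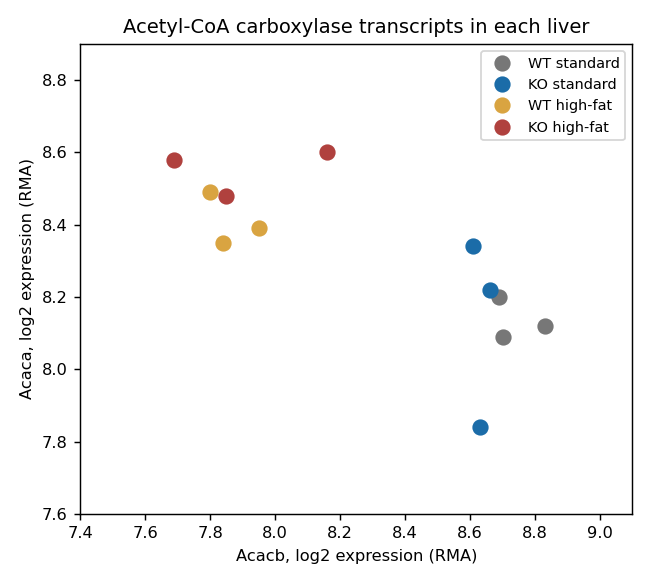
Acaca (vertical axis) against Acacb (horizontal axis), both as log2 RMA values, with 1 point for each of 12 livers coloured by group. The 6 high-fat livers lie at Acacb values of 7.69 to 8.16 and the 6 standard-diet livers at 8.61 to 8.83, with Acaca at 8.35 or above on the high-fat diet.

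Fasn, the synthase that makes palmitate, did not pass the test in any comparison. It measured 8.75, 8.42 and 8.73 in the wild type and 9.02, 8.65 and 9.08 in the knockout on the standard diet. High-fat livers measured 8.46, 8.55 and 8.42 in the wild type and 8.59, 8.52 and 8.80 in the knockout. The groups overlapped between the diets in both genotypes and between the genotypes on both diets. The diet difference was -0.16 in the wild type (95% interval -0.43 to 0.10, adjusted p = 0.476) and -0.28 in the knockout (95% interval -0.55 to -0.015, adjusted p = 0.206). The highest values, 9.02 and 9.08, were those of knockout standard-diet replicates 1 and 3. The knockout minus wild-type difference on that diet was 0.28 (95% interval 0.015 to 0.54, unadjusted p = 0.0396, limma adjusted p = 0.503).

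Me1, the cytosolic malic enzyme, measured 11.36, 11.22 and 11.22 in the wild type and 11.29, 10.93 and 11.11 in the knockout on the standard diet. The high-fat arrays gave 11.18, 11.22 and 10.93 in the wild type and 10.91, 10.93 and 11.12 in the knockout. The groups overlapped in every comparison. The diet differences were -0.15 in the wild type (95% interval -0.38 to 0.074) and -0.12 in the knockout (95% interval -0.35 to 0.11). The second probe set gave -0.22 and -0.16.

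Gpam, the mitochondrial acyltransferase that begins glycerolipid synthesis, showed no difference beyond the spread between mice. It measured 10.58, 10.26 and 10.63 in the wild type and 10.27, 10.63 and 10.81 in the knockout on the standard diet. Under high fat the levels were 10.24, 10.41 and 10.41 in the wild type and 10.32, 10.50 and 10.55 in the knockout. Its 95% intervals for the diet difference were -0.42 to 0.15 in the wild type and -0.39 to 0.17 in the knockout.

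Dgat2, which adds the last acyl chain to triglyceride, measured 11.69, 11.61 and 11.94 in the wild type and 11.78, 12.02 and 11.95 in the knockout on the standard diet. High-fat livers measured 11.72, 12.01 and 12.01 in the wild type and 11.88, 12.29 and 12.17 in the knockout. The groups overlapped in every comparison. The diet difference was 0.17 in the wild type (95% interval -0.094 to 0.43, adjusted p = 0.45) and 0.20 in the knockout (95% interval -0.064 to 0.46, adjusted p = 0.376).

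Pnpla3 encodes a protein of the lipid droplet and is a known target of SREBP-1c and ChREBP in liver. On the standard diet it measured 6.46, 6.47 and 6.45 in the wild type and 6.74, 6.95 and 6.42 in the knockout. The high-fat arrays gave 6.67, 6.69 and 6.76 in the wild type and 6.57, 6.54 and 6.56 in the knockout. Within the wild type every high-fat array lay above every standard-diet array, and with high fat all knockout arrays lay below all wild-type arrays. The knockout on the standard diet spread most (SD 0.268, against 0.00701 to 0.0491 in the other groups), with the highest value on the array with high muscle markers. The diet difference was 0.25 in the wild type (95% interval 0.0078 to 0.49, adjusted p = 0.205) and -0.14 in the knockout (95% interval -0.39 to 0.097, adjusted p = 0.495). The knockout minus wild-type difference was 0.25 on the standard diet (unadjusted p = 0.0462, limma adjusted p = 0.512) and was 0.12 without knockout replicate 2 and 0.39 without knockout replicate 3.

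Mlxipl encodes ChREBP, the factor that raises glycolytic and lipogenic genes in response to glucose metabolites. On the standard diet it measured 8.88, 9.14 and 9.26 in the wild type and 8.93, 8.76 and 9.26 in the knockout. Under high fat the levels were 9.44, 9.68 and 9.57 in the wild type and 9.91, 9.78 and 9.86 in the knockout. All 6 high-fat arrays lay above all 6 standard-diet arrays, and all knockout high-fat arrays above all wild-type high-fat arrays. The diet difference was 0.87 in the knockout (SE 0.126, 95% interval 0.60 to 1.14, limma adjusted p = 0.00221) and 0.47 in the wild type (SE 0.126, 95% interval 0.20 to 0.74, adjusted p = 0.0414). Of these, 0.87 lies beyond and 0.47 within the central 95% of chemosensory genes. The wild-type call was lost, with adjusted p from 0.0524 to 0.154, without any 1 of the wild-type arrays or without knockout high-fat replicates 2 or 3. The call in the knockout was kept in all 12 such fits.

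**Figure D3:**
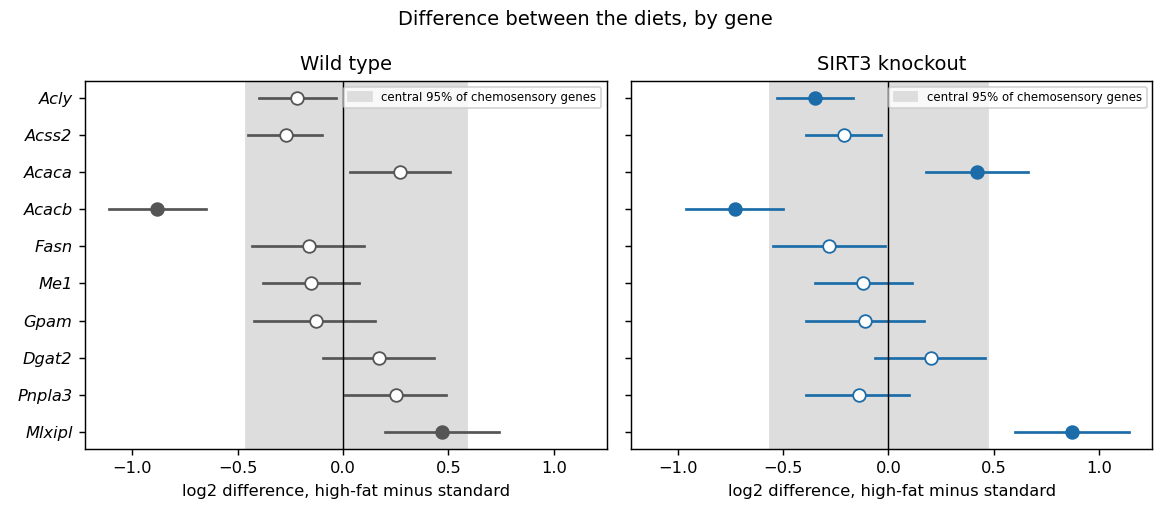
Difference between the diets (horizontal axis, high-fat minus standard, log2) for each of the 10 genes in the wild type and the knockout, with bars for 95% intervals, filled points for called genes and a grey band for the central 95% of chemosensory genes. Acacb lies below the band in both genotypes (-0.88 and -0.73) and Mlxipl above it in the knockout (0.87).

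Giving each diet difference a further variance for the offset between runs, with an SD of 0.215 taken from the chemosensory genes, left none of the 10 members called in either genotype. Unadjusted p-values were then 0.00242 and 0.00838 for Acacb in the wild type and the knockout and 0.0785 and 0.00341 for Mlxipl.

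Between the genotypes no member passed the test on either diet. On the standard diet 0 of 10 members were called, where 0.00502% of all genes were, and at an unadjusted p under 0.05 there were 2, Fasn and Pnpla3, against 9.73% of all genes. The arrays of the genotypes did not overlap for 1 member, Acacb, against 14.4% of all genes. Its difference was -0.11 (95% interval -0.34 to 0.12, limma adjusted p = 0.743). On the high-fat diet 0 of 10 members were called, as were 0% of all genes, and 1 member, Mlxipl, had an unadjusted p under 0.05 (2.86% of all genes). Knockout livers had the higher Mlxipl level by 0.29 (95% interval 0.022 to 0.56, unadjusted p = 0.0359, limma adjusted p = 1). Mlxipl and Pnpla3 were the 2 members whose genotypes did not overlap on this diet, against 6.69% of all genes, and Pnpla3 differed by -0.15 (95% interval -0.39 to 0.094).

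For the other members the intervals bound the genotype difference. On the standard diet it was 0.12 for Acly, 0.17 for Dgat2 and -0.15 for Me1, and no interval of a member reached beyond -0.38 or 0.54. On the high-fat diet it was 0.20 for Dgat2, 0.16 for Fasn and 0.14 for Acaca, and no interval reached beyond -0.39 or 0.56. The median over the members was 0.06 on the standard and 0.10 on the high-fat diet, against 0.04 and -0.02 for all genes.

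**Figure D4:**
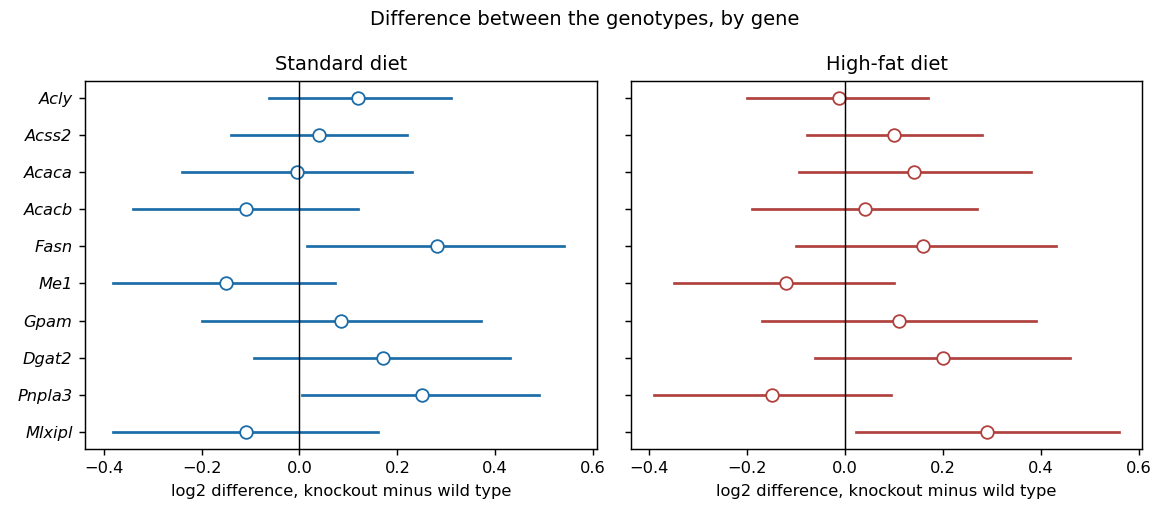
Difference between the genotypes (horizontal axis, knockout minus wild type, log2) for each of the 10 genes on the standard diet and on the high-fat diet, with bars for 95% intervals. No gene is called; the interval lies above 0 for Fasn and Pnpla3 on the standard diet and for Mlxipl on the high-fat diet.

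Whether the response to diet differed between the genotypes was tested as an interaction, taken as knockout minus wild type. It shares its arrays with the comparisons above and adds no independent data. None of the 10 members was called, as were 0% of all genes, and 2 had an unadjusted p under 0.05, against 4.73% of all genes. The interaction was 0.40 for Mlxipl (SE 0.178, 95% interval 0.019 to 0.78, unadjusted p = 0.041, limma adjusted p = 0.945). It was -0.39 for Pnpla3 (SE 0.16, 95% interval -0.74 to -0.053, unadjusted p = 0.0267, adjusted p = 0.945). For the remaining members it lay between -0.13 and 0.15. The diet responses of the genotypes were thus not shown to differ for any member.

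Within groups no liver was high or low for all members. Knockout high-fat replicate 3 came nearest, being the highest of its group for 6 of 10 members and the lowest for 0, with a mean deviation of 0.09 from the group means. Knockout standard-diet replicate 2 was the lowest of its group for 4 members (Acaca, Fasn, Me1 and Mlxipl) and the highest for 4 (Acly, Acss2, Dgat2 and Pnpla3).

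Of 62 further genes of the pathway 57 were measured, and between the diets 12 were called in the wild type, 8 up and 4 down, and 14 in the knockout, 8 up and 6 down. The shares of all genes called were the 5.99% (4.3% up, 1.69% down) and 5.11% (2.45% up, 2.66% down) given above. In the 2 genotypes 10 genes were called in common, 83.3% of the wild-type and 71.4% of the knockout calls. No matching share over all genes is given, and both comparisons lie across the same runs. Between the genotypes the only call was the desaturase Scd1 on the standard diet, and no gene was called on the high-fat diet or for the interaction.

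Among regulators (15 measured), Srebf1, which encodes SREBP-1, measured 7.98, 7.94 and 8.09 in the wild type and 8.65, 7.99 and 8.20 in the knockout on the standard diet. High-fat livers measured 9.35, 9.20 and 9.27 in the wild type and 9.26, 9.60 and 9.51 in the knockout, above every standard-diet array. The rise was 1.27 (SE 0.14, limma adjusted p = 0.000274) and 1.18 (adjusted p = 0.000609). Srebf2, which encodes the factor of cholesterol synthesis, fell by 0.54 and by 0.65. Insig1, whose product holds SREBP precursors in the endoplasmic reticulum, fell by 0.93 and by 0.96. Insig2 and Mlx, the partner of ChREBP, were called in the knockout alone, at -0.79 and -0.39. In the wild type they differed by -0.45 and -0.30, uncalled. The nuclear receptor gene Pparg rose by 0.50 in each genotype, and its coactivator Ppargc1b was called in the wild type alone, at 0.52. Knockout means of Ppargc1b were 7.38 on the standard and 7.76 on the high-fat diet.

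Thrsp, a lipogenic gene of fed liver also called Spot 14, split the livers of a group. It measured 7.02, 7.01 and 6.93 in the wild type and 7.24, 7.22 and 8.02 in the knockout on the standard diet. The high-fat arrays gave 7.17, 7.44 and 9.05 in the wild type and 7.46, 9.81 and 10.29 in the knockout. The high values were those of wild-type replicate 3 and knockout replicates 2 and 3 with high fat, and the diet differences of 0.90 and 1.69 were not called (limma adjusted p = 0.379 and 0.104). Without knockout high-fat replicate 1 the knockout difference was 2.56 and was called (adjusted p = 0.00598), and with array weights it was 2.17 (adjusted p = 0.0117). In the wild type the difference was 0.32 without high-fat replicate 3.

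Of 8 genes of desaturation and elongation, Scd1, Scd2 and Fads1 were called. Scd1, which makes monounsaturated fatty acids, measured 10.10, 9.13 and 10.18 in wild-type and 11.74, 11.49 and 11.31 in knockout livers on the standard diet. Under high fat the levels were 13.21, 13.11 and 13.22 in the wild type and 13.54, 13.52 and 13.04 in the knockout. All high-fat arrays lay above all standard-diet arrays. The rise with high fat was 3.38 in the wild type (SE 0.217, 10.4-fold, limma adjusted p = 2.07e-06) and 1.85 in the knockout (SE 0.217, 3.61-fold, adjusted p = 0.000609). The genotypes were apart on the standard diet by 1.71 (SE 0.217, limma adjusted p = 0.0261), a value that stayed between 1.37 and 1.90 without 1 array. That call was lost, with adjusted p up to 0.177, in 7 of 12 such fits, and with robust moderation (0.234), the compared groups alone (0.447) or all probe sets (0.633). These left out knockout standard-diet replicates 1 or 2, any wild-type high-fat array, or knockout high-fat replicates 1 or 2. The interaction of -1.52 was the lowest of the 57 genes and was not called (adjusted p = 0.945). For the interaction 1 of the 57 genes, in the desaturation and elongation list, had an unadjusted limma p under 0.05, against 4.73% of all genes. Scd2 was called between the diets in the wild type alone, at 0.74. Knockout means of Scd2 were 6.36 on the standard and 6.66 on the high-fat diet. Fads1, which desaturates polyunsaturated fatty acids, fell by 0.89 and by 0.70. The elongase Elovl6 differed by 0.37 and 0.33, uncalled.

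Of 14 acyltransferase and lipin genes, Mogat1, Agpat1 and Agpat4 were called up in both genotypes and Gpat4 in the knockout alone. The monoacylglycerol acyltransferase Mogat1 measured 5.79, 6.12 and 5.98 in the wild type and 6.13, 5.75 and 6.03 in the knockout on the standard diet. High-fat livers measured 7.17, 6.41 and 7.57 in the wild type and 6.86, 7.26 and 7.29 in the knockout. No high-fat array overlapped the standard diet, and the rise was 1.09 (SE 0.222, limma adjusted p = 0.013) and 1.16 (adjusted p = 0.00977). Agpat4, which acylates lysophosphatidic acid, rose by 0.46 and 0.70, and Agpat1 by 0.35 and 0.40. Of these, 0.70 lies beyond and the rest lie within the central 95% of chemosensory genes. Agpat4 is dim, with group means of 5.24 to 5.97 where the lower quartile of all genes was 5.65. Without 1 array the wild-type calls of Agpat4 and Agpat1 were lost in 5 and 6 of 12 fits, and the knockout call of Agpat1 in 4. Gpat4 differed by 0.21 in the wild type, uncalled, and by 0.32 in the knockout. Dgat1 differed by -0.23 in both genotypes, uncalled. Lpin1, the phosphatidic acid phosphatase, was 8.96, 8.27 and 8.24 on replicate 1 of the knockout standard-diet, wild-type high-fat and knockout high-fat groups and between 10.50 and 11.95 on the other 9 arrays. Its diet differences of -1.71 and -0.84 were not called (limma adjusted p = 0.202 and 0.574), and they were -0.92 without wild-type high-fat replicate 1 and -0.017 without knockout high-fat replicate 1. With array weights the wild-type difference was -2.46 and was called (adjusted p = 0.0206).

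**Figure D5:**
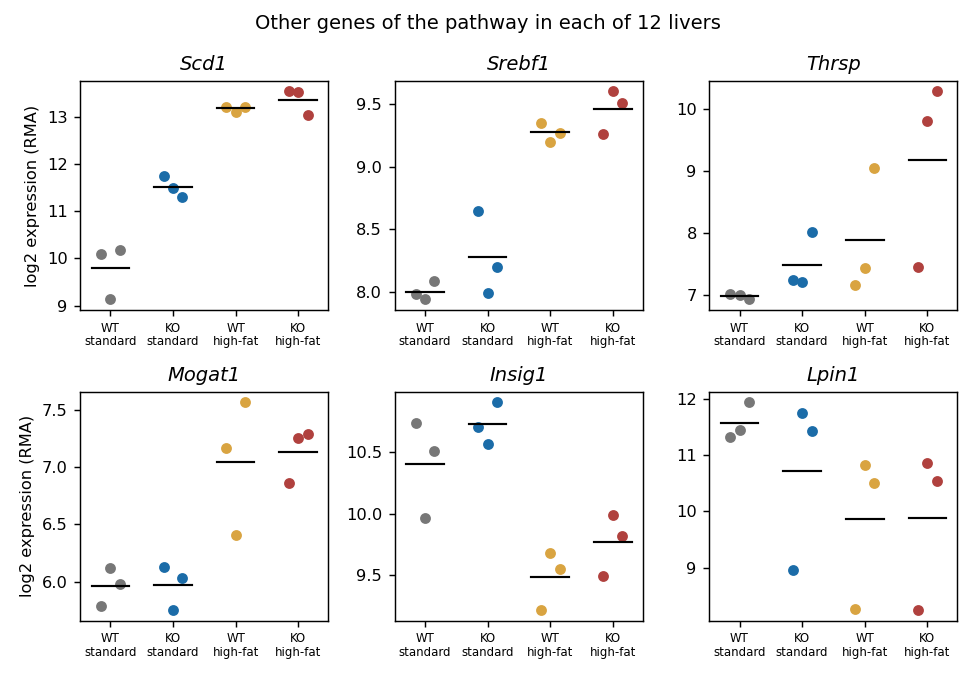
Log2 expression (vertical axis, RMA values, a separate scale for each gene) of Scd1, Srebf1, Thrsp, Mogat1, Insig1 and Lpin1 in each of 12 livers, by genotype and diet. Points are arrays in replicate order and lines are group means of 3; Srebf1 and Mogat1 lie higher and Insig1 lower on every high-fat than on every standard-diet array of the same genotype, while Thrsp and Lpin1 split livers of the same group.

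The 6 measured genes of substrate supply had no call. Of 6 genes of glycolysis and NADPH supply only Aldoc, an aldolase, was called, falling by 0.71 and 0.69, and Pklr, the liver pyruvate kinase and a known ChREBP target, differed by 0.20 and 0.051. Of 8 paralogs of the members, only Me2, the mitochondrial malic enzyme, was called, at 0.41 in the knockout. In the wild type it differed by 0.27, uncalled. Leaving out 1 array at a time, 5 of the 12 wild-type calls (Scd1, Srebf1, Aldoc, Fads1 and Srebf2) and 8 of the 14 knockout calls (these 5 with Agpat4, Mogat1 and Insig1) were kept in all 12 fits. With the variance for the offset between runs, 1 of the 57 genes was called in the wild type (Scd1, adjusted p = 0.000368) and 0 in the knockout, where Scd1 had an adjusted p of 0.0632.

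Other lists of genes also differed between the diets. Of 11 measured fasting genes, 10 were lower with high fat in each genotype, 9 of them in both, where 41.8% of all genes were lower in the wild type and 52.3% in the knockout. Of these genes 0 were called in the wild type and 2 in the knockout (Igfbp1 and Pdk4). The mean of that list was 11.26 to 11.37 in the standard-diet groups and 10.74 to 11.07 in the high-fat groups. The adipocyte list (6 of 8 measured) had means of 6.51 to 6.65 on the standard and 6.64 to 6.84 on the high-fat diet, with Car3 as its only call in each genotype, and Adipoq, the defining adipocyte gene, lay between 4.09 and 4.51 on all arrays. The endothelial list (5 measured) had means of 8.61 to 8.71 and 8.74 to 8.93, with Stab2 called up in each genotype. Of 5 measured lymphocyte genes, 3 rose in the wild type (Cd3e, Cd79a and Klrb1c) and 0 in the knockout, against 4.3% and 2.45% of all genes called up. Female-biased liver genes (8 of 12 measured) had means of 5.90 to 7.41 and 5.55 to 5.86, with Cyp2b13 and Cyp17a1 called down in each genotype. The 7.41 was that of knockout standard-diet replicate 1, and the other standard-diet arrays lay at 5.90 to 6.09. Male-biased genes (10 of 12 measured) were higher with high fat for 10 of 10 in the knockout, 1 of them called (Cyp4a12b), and for 8 of 10 in the wild type, 0 called. Of all 19938 genes, 9520 were higher in the knockout and 11600 in the wild type. The male-biased mean was 9.21 on knockout standard-diet replicate 1, 10.52 to 10.95 on the other standard-diet arrays and 10.55 to 11.50 on the high-fat arrays. The part of these lists in the differences of the lipogenic genes was not tested.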

How the data were processed

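The deposited table gives a log2 expression value per probe set and array. The authors made it using RMA and the Affymetrix Expression Console software, per the submitters' processing notes; versions are not given in the sources used here. RMA corrects background, brings the arrays of a run to 1 distribution and summarizes probes, so it can narrow differences between arrays. Nothing was renormalized. Of 35557 probe sets, 21789 have 1 symbol in the platform annotation, 1621 several and 12147 are unlisted. The set with the highest mean was kept for each of 999 genes with more than 1, leaving 19938 genes.

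All 12 arrays entered 1 linear model with a mean for each group in limma 3.58.1 (R 4.3.3), with empirical Bayes moderation along intensity and Benjamini-Hochberg adjustment over all genes. The fit was tested on simulated data. The members and the lists of genes and motifs were chosen with earlier results of these data known. All members are named; of the pathway list, Scd1, Srebf1, Thrsp, Elovl6, Pklr, Dgat1, Lpin1 and every called gene are named. Acsl1, Acsl3, G6pdx and Nr1h2 are among the listed genes not analysed here.

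Alternatives were other priors, array weights, the compared groups alone, a replicate block, a filter on dim genes, other treatment of probe sets, quantile normalization, median centring, a threshold of 0.1 and leaving out each array. A variance for the offset between runs, taken from how far the diet differences of the chemosensory genes varied together in both genotypes, and the joint omission of 2 arrays with high acute-phase levels (replicate 1 of the knockout on the standard diet, and replicate 3 of the wild type with high fat; replicate 3 of the knockout with high fat, also high, was left out only singly) were chosen after seeing the data. Depth has no counterpart on arrays, and their number limits the precision. Figures were drawn with matplotlib 3.10.9.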

Additional observations from a re-analysis of the deposited data

How the results depend on the processing

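The count of members called between the genotypes, and for the interaction, was 0 under every alternative run. Between the diets in the wild type the count of 2 became 5 with array weights, 1 with the 25% dimmest genes left out, 1 with all probe sets tested, 1 with the 2 acute-phase arrays named in the processing left out together and 0 with the variance for the offset between runs. It lay between 1 and 3 when 1 array was left out. In the knockout the count of 4 became 2 in a fit of the compared groups only, 2 with those arrays left out and 0 with the offset variance, and lay between 2 and 4 when 1 array was left out. Acacb was called in both genotypes, and Mlxipl in the knockout, under every alternative except the offset variance. Median centring kept the wild-type count at 2 but with Acss2 in place of Mlxipl (adjusted p = 0.0394 and 0.133).

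With the replicate number as a block the counts of members were again 2 and 4, and of the other named genes Lpin1 in the wild type (-1.71, adjusted p = 0.0236) and Thrsp in the knockout (1.69, adjusted p = 0.0466) were called as well. Of 18 same-numbered pairs of arrays, 5 deviated together with a correlation over 0.1 (range -0.271 to 0.407). Pairs of different numbers were not compared, so a factor shared by replicate number was not tested. The main fit did not take the numbers as pairs.

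Changes of sign occurred in 11 differences, none of them called. For knockout minus wild type on the standard diet, Acaca (-0.0056) was 0.058 with the mean of its probe sets, 0.022 with quantile normalization and -0.11 to 0.14 without 1 array. Acss2 was -0.039 with median centring, and without 1 array Gpam was -0.036 to 0.24 and Mlxipl -0.25 to 0.004. On the high-fat diet Acacb was -0.011 with array weights and -0.09 to 0.15 without 1 array. Acly was 0.017 with quantile normalization, 0.00099 with median centring, 0.044 without those 2 arrays and -0.066 to 0.044 without 1 array. For the diet difference in the knockout, Pklr was -0.018 with array weights and -0.044 to 0.17 without 1 array, and Gpam was -0.26 to 0.0082. The interaction of Me1 was -0.047 with array weights and -0.059 to 0.12 without 1 array. That of Gpam was -0.0017 with quantile normalization, -0.10 without those 2 arrays and -0.13 to 0.14 without 1 array, and that of Dgat2 was -0.008 and -0.068 to 0.15. The cause of these changes was not tested.

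With 3 arrays a group the SE of a member's difference was 0.0831 to 0.132, and diet is not separable from the normalization run.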
